A study of Mus musculus with 5 samples.

Results

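Of the 8038 regions in a deposited table of Pou4f1 CUT&Tag signal from embryonic mouse retina, 88 (1.09%) lay close together in 15 loci. A locus was a run of at least 4 regions on the same chromosome in which the end of each region lay 10 kb or less from the start of the next. The positions of the regions alone chose the loci, and no signal value entered the choice. The table was itself made by calling regions in the Pou4f1 libraries, so part of any excess of Pou4f1 over IgG signal comes from that call. Each sample was a pool of 4 retinas of wild-type (WT) embryos at E16.5, dissociated with papain, and no group carried a mutation or a treatment. CUT&Tag used rabbit anti-Pou4f1 (n = 2), rabbit IgG as the negative control (n = 2) and rabbit anti-H3K9AC (n = 1, not analysed here). The Pou4f1 columns of the table are numbered as replicates, whereas the control columns are not. One is headed IgG and the other negative control, which was read as a second IgG library, since the study describes no negative control other than rabbit IgG.

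Pou4f1 (Brn3a) is a transcription factor with a POU-specific domain and a POU homeodomain that binds A and T rich DNA. In the retina it marks postmitotic ganglion cells, the neurons that send axons to the brain, and its paralogs Pou4f2 and Pou4f3 are made in overlapping ganglion cells. In CUT&Tag, an antibody tethers a transposase to chromatin, and DNA near the antibody is tagged and sequenced. Several tagged regions in a row can mark a gene with many regulatory elements, a row of small genes with a promoter each, or a repeated stretch of DNA to which reads cannot be assigned uniquely. Whole retina holds many cell types, and more bound cells cannot be told apart from more binding per cell.

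The loci held 14 regions at the interferon zeta genes, 13 and 7 at parts of the Hist1 histone cluster, 6 each at Pou4f1 and Tle3, 5 each at Atp5d-Midn-Cirbp and Nptx1, and 4 at each of 8 others. Sequence shows how these loci differ. The interferon zeta regions are copies of each other, and the stretch printed next, from chr4:88763522-88763551 (mm10, plus strand), was found without a mismatch in 14 of the 14 regions. Between neighbouring copies it recurred at a median spacing of 2928 bp, and 12 of the 13 spacings were between 2900 and 3000 bp.
Interferon zeta stretch: gcgccctctgctgctgctcctggcctcaga

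The POU motif searched was ATNAATAATT or ATNAATTATT on either strand, and 7 of the 88 regions held it anywhere along their length. The matches of 5 loci are shown with 10 bases on each side, 5′ to 3′ on the strand of the match, with the match in capitals. They are shown because, apart from 1 region at Pou4f3, no other clustered region held the motif. The Ldlrad3 and Fbxw8 matches were added after their values were seen.
Tle3 region 4, chr9:61377970-61377999, minus strand: aggacactgcATGAATAATTcaagcactcc
Nptx1 region 2, chr11:119558121-119558150, minus strand: atggagccaaATTAATTATTggcatcaaag
Pou4f1 region 2, chr14:104461018-104461047, plus strand: ccctcagtccATGAATTATTcagagggcaa
Nptx1 region 5, chr11:119569027-119569056, plus strand: taaagtattgATTAATAATTgattagaact
Nptx1 region 5, chr11:119569030-119569059, minus strand: gttagttctaATCAATTATTaatcaatact
Ldlrad3 region 2, chr2:102147739-102147768, plus strand: gctaaccagcATCAATAATTcagctattaa
Fbxw8 region 4, chr5:118079893-118079922, plus strand: gcctagtgacATCAATTATTcatgctcaca
Fbxw8 region 4, chr5:118079896-118079925, minus strand: gagtgtgagcATGAATAATTgatgtcacta
In Nptx1 region 5 and in Fbxw8 region 4 the 2 matches lie on opposite strands and overlap, so they are not separate sites.

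Wider stretches of 100 bases, on the plus strand, show the surroundings of the match in the motif-bearing regions of Pou4f1, Tle3 and Nptx1 that lie outside annotated exons. The capitals mark the match as it reads on the plus strand.
Pou4f1 region 2, chr14:104460983-104461082: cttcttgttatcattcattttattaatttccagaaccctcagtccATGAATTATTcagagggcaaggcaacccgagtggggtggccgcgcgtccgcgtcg
Tle3 region 4, chr9:61377935-61378034: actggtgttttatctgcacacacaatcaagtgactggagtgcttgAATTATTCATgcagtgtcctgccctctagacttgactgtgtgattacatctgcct
Nptx1 region 2, chr11:119558086-119558185: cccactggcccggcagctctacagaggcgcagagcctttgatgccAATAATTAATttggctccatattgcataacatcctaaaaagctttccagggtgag

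The values are signal, a coverage averaged over each region. Signal times region length was a whole multiple of a fixed step of the library for 100% of values (tolerance 0.05 steps), with steps of 44.97 and 61.16 in Pou4f1 replicates 1 and 2, 76.24 in the IgG column and 88.90 in the negative-control column. The sources used here do not give the depth of the libraries, and no scaling was added. The test of Pou4f1 against IgG was limma on log2(signal + 1), fitted over all 8038 regions and, for loci, over all 7421 runs of regions with 1 length-weighted mean per run. The study calls its replicates independent, but the sources used here do not say whether they came from separate pools of retinas, so p-values may measure only the spread between these libraries. The threshold was an adjusted p of 0.05, which 64.8% of all regions and 67.3% of all runs passed as higher in Pou4f1, and both Pou4f1 libraries lay above both controls in 96.5% of all regions. Where signal is low, the added 1 makes log2 differences too small. Against the lists of known genes, Pou4f1 and Pou4f3 were the clustered members of 49 ganglion cell factors, of which 34 had any region within 10 kb. Of all 21938 protein-coding genes, 6137 (28.0%) had a region within 10 kb and 59 (0.269%) were at a clustered locus. Of 26 ganglion cell markers 9 had a region within 10 kb and 0 were in a clustered locus. The corresponding counts were 10 and 0 of 24 retinal progenitor genes, 4 and 0 of 18 amacrine and horizontal cell genes, 2 and 0 of 17 photoreceptor and bipolar cell genes, and 2 and 0 of 17 genes of non-neural eye cells.

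Runs of regions were uncommon in the table. Of the 8012 gaps between neighbouring regions 617 (7.70%) were 10 kb or less, and the median gap was 133310 bp. The 7421 runs comprised 6909 of 1 region, 450 of 2, 47 of 3 and the 15 loci. The loci lay on 11 chromosomes and spanned 14.9 to 55.5 kb, with a median of 19.5 kb. Inside them the 73 gaps had a median of 2844 bp (quartiles 1265 and 5131), from 140 to 9501 bp. Gaps under 1 kb numbered 17, in 9 loci, so that some neighbours may be pieces of 1 broader region. The widest gaps that still joined a locus were 9501 bp at Fbxw8 and 9460 bp in the interferon zeta locus. Just outside the rule stood a run of 3 regions at Fzr1-Dohh, whose next region was 10216 bp away, and one at Kxd1-Fkbp8-Ell, 11098 bp from the next.

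**Figure D1:**
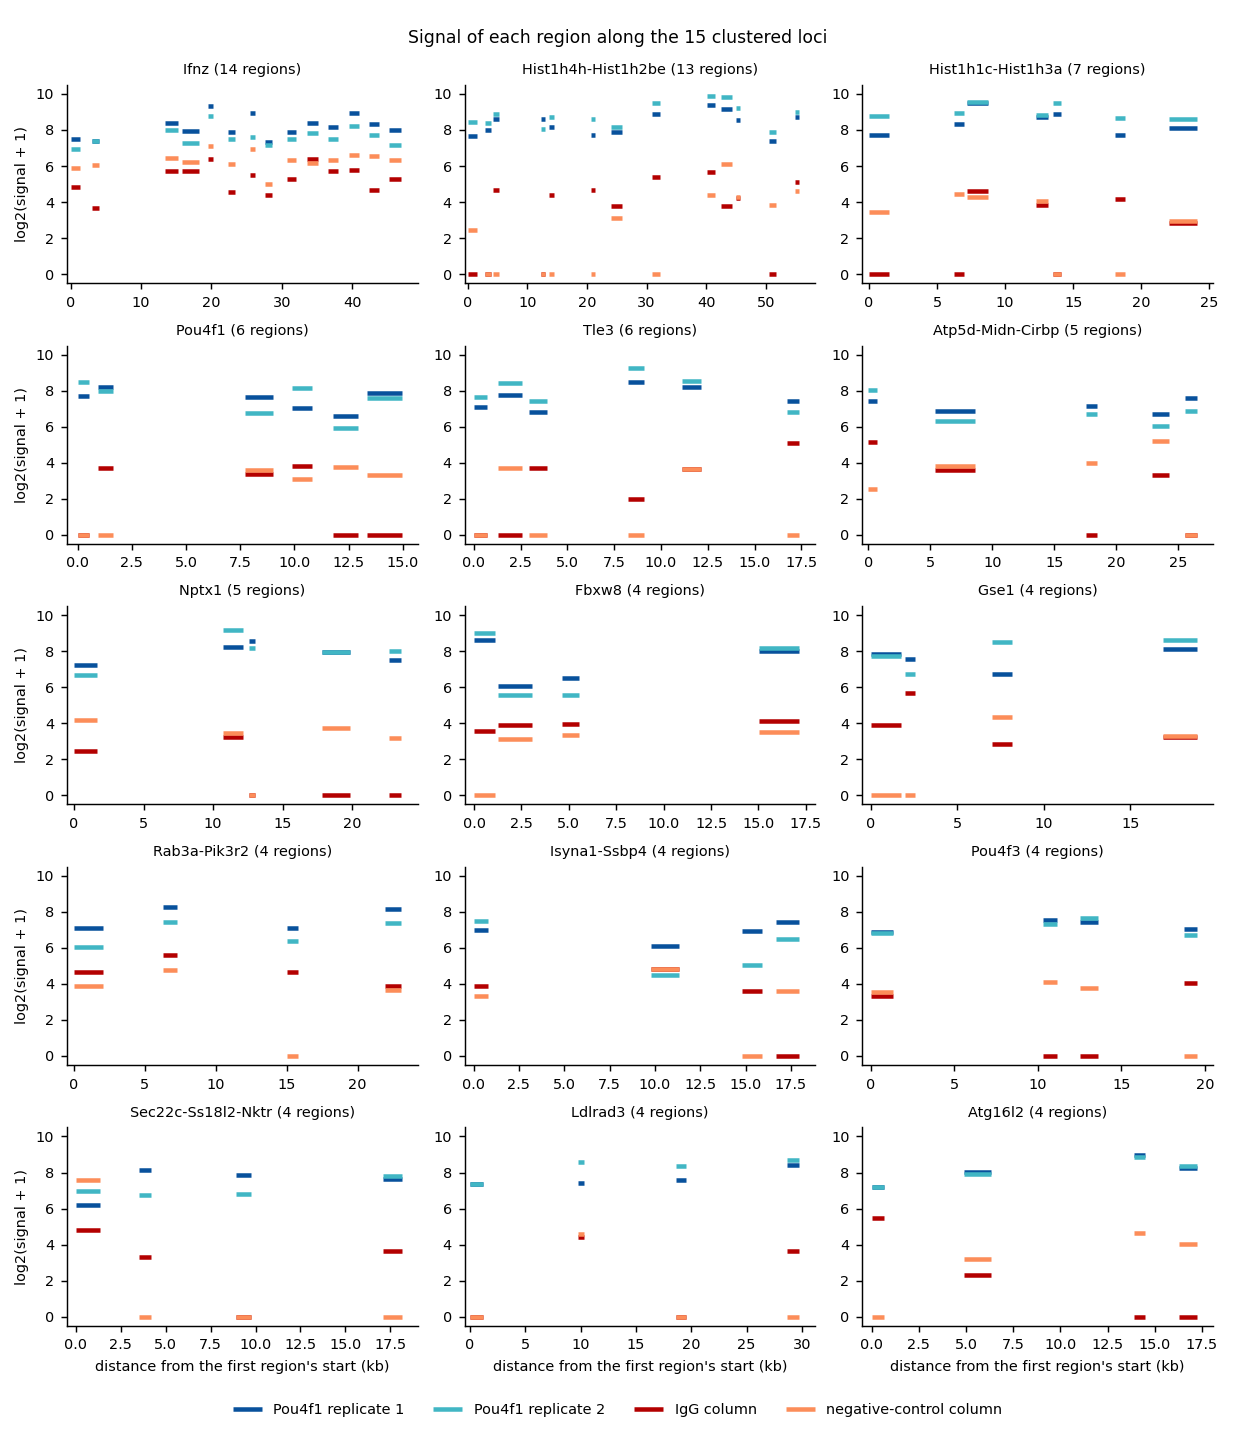
Signal of each of the 88 regions along the 15 loci, as log2(signal + 1) against the distance in kb from the start of the first region, with bars as long as the region and a colour per library. IgG bars at 0 on the vertical axis are regions listed at 0, where 1 colour can cover the other. In the interferon zeta panel the IgG bars never reach 0, and at Isyna1-Ssbp4 and Sec22c-Ss18l2-Nktr 1 region each has IgG signal as high as a Pou4f1 library.

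The Pou4f1 locus carried 6 regions within 14.9 kb (chr14:104459540-104474485), the shortest span of the 15. They lay on both sides of the gene as well as at its promoter. Midpoints of 2 regions lay past the 3′ end of the gene, by 1.89 and 0.866 kb, 1 lay 0.092 kb inside its start, and 3 lay 1.88, 3.90 and 5.69 kb upstream. The locus is the gene of the factor whose antibody was used. Its length-weighted mean signal was 188 and 183 in Pou4f1 replicates 1 and 2, against 5.32 in the IgG column and 8.08 in the negative-control column. Both Pou4f1 libraries lay far above both controls, and they differed little from each other. The log2 difference was 4.62 (SE 0.43, adjusted p = 0.00526 by limma). On their own, 5 of the 6 regions passed the threshold of 0.05, beside 64.8% of all regions in the table.

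Within the locus the regions were unequal. The highest by the mean of both libraries were regions 1 and 2, past the gene, at 278 and 275. Region 2, which carries the motif shown above, had 296 in replicate 1 and 254 in replicate 2, 12.02 in the IgG column, and it was listed at 0 in the negative-control column. The neighbouring region 1, within 1 kb of the start of the noncoding gene D130079A08Rik, had 205 and 352, while neither control library showed any signal there (listed at 0). The promoter region of Pou4f1 itself (region 3) had 195 and 108 against 9.37 and 10.9, a log2 difference of 3.72 (SE 0.51, adjusted p = 0.0127 by limma). It was therefore below both regions past the gene. The lowest was region 5, upstream of the gene, with 94.9 and 60.5 against 0 and 12.6. Its adjusted p of 0.0758 missed the threshold.

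The Pou4f3 locus (chr18:42382423-42401927) had 4 regions over 19.5 kb. Pou4f3 is the paralog of Pou4f1 that is best known for its need in hair cells of the inner ear, and it is also made in some ganglion cells. The midpoints lay 11.4 and 1.39 kb upstream of the gene start, 0.960 kb inside the gene and 4.30 kb past its end. Mean signal was 150 and 144 in the Pou4f1 replicates, against 5.91 in the IgG column and 10.4 in the negative-control column. The replicates were close and the groups did not overlap, with a log2 difference of 4.06 (SE 0.47, adjusted p = 0.00862 by limma). The regions were the most even of the 15 loci, the highest being 1.61 times the lowest. Region 3, inside the gene, was the highest, with 174 and 198 against 0 and 12.6 (adjusted p = 0.0483 by limma). Region 1, farthest upstream, held the POU motif 457 bp from its centre and was the lowest, with 118 and 113 against 9.12 and 10.6. It passed the threshold with a log2 difference of 3.42 (SE 0.38, adjusted p = 0.00818 by limma).

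Tle3, a corepressor of the Groucho family that binds DNA only through other factors, had 6 regions over 17.4 kb (chr9:61369096-61386480). Region 3 covered the start, regions 1 and 2 lay 2.91 and 1.35 kb upstream, near the noncoding gene Gm10655, and regions 4, 5 and 6 lay in introns 5.39, 8.36 and 13.8 kb inside the gene. Mean signal was 217 and 312 in the Pou4f1 replicates, 8.84 in the IgG column and 4.89 in the negative-control column. Replicate 2 was the higher in 5 of the 6 regions. The log2 difference was 5.10 (SE 0.52, adjusted p = 0.00645 by limma). The intronic region 4, with its motif 229 bp from the centre, stood above the rest, at 354 and 616 against 3.02 and 0. The region at the start (region 3) and the innermost one (region 6) were the lowest, each with a mean of 140. Region 3 had 111 and 170 against 11.9 and 0, with an adjusted p of 0.0537 that missed the threshold.

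Nptx1, a secreted pentraxin that gathers AMPA receptors at excitatory synapses, had 5 regions over 23.5 kb (chr11:119546328-119569862). Only region 1 was at the gene start. The other 4 lay 10.01, 11.4, 17.4 and 21.7 kb upstream, 3 of them in introns of the noncoding gene Gm11762. Mean signal was 233 and 290 against 3.06 in the IgG column and 11.7 in the negative-control column. The log2 difference was 5.18 (SE 0.76, adjusted p = 0.0142 by limma), and all 5 regions passed the threshold, beside 64.8% of all regions in the table. The upstream region 2, with the motif 371 bp from its centre, was the highest, at 298 and 573 against 8.45 and 9.85. Region 1 at the start was the lowest, at 148 and 103 against 4.55 and 17.5. Region 5, which held the overlapping pair of matches, had 184 and 259 against 0 and 8.14. At Nptx1, as at Tle3, an element away from the start thus had the highest signal and the start was among the lowest.

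The histone loci had the highest Pou4f1 signal of the 15. Histone genes are short genes whose transcripts lack introns, and they sit side by side so that neighbouring regions cover neighbouring promoters. The locus from Hist1h4h to Hist1h2be (chr13:23530637-23586146) had 13 regions over 55.5 kb, and regions covered 12 of its 14 coding starts. The locus from Hist1h1c to Hist1h3a (chr13:23738721-23762781) had 7 regions over 24.1 kb, and regions covered 8 of its 8 coding starts. The genes encode core histones (H2A, H2B, H3 and H4) and linker histones (Hist1h1c and Hist1h1d).

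Mean signal of the locus from Hist1h4h to Hist1h2be was 369 and 520 in the Pou4f1 replicates, 17.97 in the IgG column and 14.9 in the negative-control column. The log2 difference was 4.66 (SE 0.43, adjusted p = 0.00533 by limma). In the locus from Hist1h1c to Hist1h3a the values were 381 and 511 against 9.15 and 10.6, a log2 difference of 5.35 (SE 0.42, adjusted p = 0.00359 by limma). Neither changed sign under any alternative scaling of the libraries, but both lost the call with the column totals as library sizes. Those totals cover only regions called for Pou4f1, so that scaling takes out part of the Pou4f1 excess shared by the table. Replicate 2 was higher than replicate 1 in 19 of the 20 histone regions, with a median ratio of 1.43, while in unclustered regions within 1 kb of a start it was higher in 16.3%.

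The highest single region of all 88 was region 9 of the first histone locus, at Hist1h2bg and Hist1h2ae, with 670 and 935 in the Pou4f1 replicates against 50.2 and 19.7. It ranked 55th in the table, and it was the 1 clustered region among the 80 regions with the highest mean Pou4f1 signal. The lowest of that locus was region 12, at Hist1h4d, with 168 and 232 against 0 and 13.0. In the locus from Hist1h1c to Hist1h3a the highest was region 3, at Hist1h2bb, with 719 and 759 against 23.6 and 18.6, and the lowest was region 6, at Hist1h4b, with 213 and 402 against 17.2 and 0. Near-identical histone genes can share reads. Of the 20 histone regions 8 had another region in the table with at least 90% identity over at least 50% of their length, and the sources used here do not say how reads that map to several places were treated. The signal of single histone genes is therefore uncertain.

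The interferon zeta locus (chr4:88760073-88807030) had the most regions, 14 over 47.0 kb. Interferon zeta (limitin) is a type I interferon, and the locus holds 13 coding starts of Ifnz and of predicted genes of the same family. The midpoint of every one of the 14 regions lay within 1 kb of a transcription start. Each had between 8 and 13 other regions of the table with at least 90% identity over at least 50% of its length (median 12), and the median identity of the pairs was 99.6%. Reads from 1 copy cannot be told from those of another where the copies are identical, and how such reads were assigned was not tested. The signals of the 14 regions should therefore not be read as separate measurements.

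Its mean signal was 302 and 199 in Pou4f1 replicates 1 and 2, 43.9 in the IgG column and 79.7 in the negative-control column. It had the highest control signal of the 15 loci in both control libraries. Of its 14 regions 14 had a mean IgG signal above 20, beside 15.7% of unclustered regions, and none was listed at 0 in a control library. Both Pou4f1 libraries still lay above both controls in 14 of 14 regions, beside 96.5% of all regions in the table. Of the 14 regions 5 passed the threshold, beside 64.8% of all regions. The log2 difference of the locus was the lowest of the 15, at 2.03 (SE 0.55, adjusted p = 0.0470 by limma). It fell below 0, to -1.98, with the column totals as library sizes, a scaling that takes out part of the Pou4f1 excess shared by the table. The highest region was region 5, at Gm13272, with 636 and 439 against 81.4 and 137. The lowest was region 8, near Gm13277, with 158 and 141 against 19.8 and 30.9. The highest region in the Pou4f1 libraries was thus also high in the controls.

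Atp5d-Midn-Cirbp (chr10:80141812-80168282) was a row of 3 genes, with 5 regions over 26.5 kb. Atp5d encodes a subunit of the mitochondrial ATP synthase and Cirbp a cold-inducible RNA-binding protein. A region covered the starts of Midn and Cirbp. Mean signal was 133 and 101 against 10.2 in the IgG column and 14.96 in the negative-control column, a log2 difference of 3.13 (SE 0.45, adjusted p = 0.0138 by limma). The highest region, at Atp5d, had 169 and 259 against 34.7 and 4.81, and its adjusted p of 0.0541 missed the threshold. The lowest, region 4, at the start of Cirbp, had 102 and 64.3 against 8.996 and 35.9 (adjusted p = 0.101 by limma).

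Atg16l2, a relative of the autophagy gene Atg16l1, had 4 regions over 17.2 kb (chr7:101296552-101313771), and had the highest Pou4f1 signal after the histone loci. Mean signal was 287 and 278 against 9.69 in the IgG column and 10.97 in the negative-control column, a log2 difference of 4.65 (SE 0.38, adjusted p = 0.00398 by limma). The strongest region was not at a start. Region 3, 8.47 kb upstream of Atg16l2 and 6.36 kb from the nearest start of Stard10, had 504 and 464 against 0 and 24.3, with an adjusted p of 0.0525. The lowest, region 1, near an inner start of Atg16l2, had 145 and 143 against 44.0 and 0 (adjusted p = 0.139 by limma). The large SE of such regions came with control libraries of which 1 was listed at 0.

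Isyna1-Ssbp4 (chr8:70594298-70612253) had the lowest Pou4f1 signal of the 15 loci. Isyna1 makes inositol phosphate from glucose phosphate, and Ssbp4 is a single-stranded DNA-binding protein. Mean signal over the 4 regions was 119 and 69.2 against 13.8 and 13.6, a log2 difference of 2.64 (SE 0.48, adjusted p = 0.0227 by limma). The region at the start of Isyna1 was the highest, at 126 and 179 against 13.6 and 9.25. It was the 1 region of the 4 past the threshold, which 64.8% of all regions passed. Region 2, in an intron of Ssbp4, had 66.8 in replicate 1 and 21.9 in replicate 2, against 27.0 and 27.2, so that the Pou4f1 and IgG libraries overlapped. Its log2 difference was 0.49 (SE 0.72, adjusted p = 0.550 by limma), and without replicate 1 it was -0.30.

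The other 5 loci, outside the rule for loci given in full, each had 4 regions. Their values were read before they were chosen for description. Ldlrad3, a membrane protein of the LDL receptor class A family, had 221 and 309 against 6.59 and 3.72, with 1 region at an inner start and 3 in introns (log2 difference 5.45, adjusted p = 0.00513 by limma). This was the largest log2 difference of the 15. The Gse1 regions were the only set with all 4 in introns, 152 to 169 kb inside the gene, with 219 and 298 against 14.4 and 7.24 (log2 difference 4.51, adjusted p = 0.00939 by limma). Fbxw8, the substrate-binding subunit of a ubiquitin ligase, had 201 and 222 against 14.3 and 7.50 (log2 difference 4.22, adjusted p = 0.00927 by limma). The regions lay at the 3′ end of the gene and up to 15.2 kb inside it. Regions 1 and 2 were within 1 kb of the start of the antisense gene Gm9754. The Fbxw8 regions were the most unequal of the 15 loci, the highest (region 1, 387 and 509) being 7.91 times the lowest.

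Rab3a-Pik3r2 held Rab3a, a GTPase of synaptic vesicles, Mpv17l2 and Pik3r2, a regulatory subunit of PI3 kinase, and its regions covered all 3 coding starts. It had 207 and 113 against 26.5 and 13.8 (log2 difference 2.93, adjusted p = 0.030 by limma). Sec22c-Ss18l2-Nktr was the 1 locus that missed the threshold. It had 177 and 144 against 14.0 in the IgG column and 63.9 in the negative-control column, a log2 difference of 2.36 (SE 0.92, adjusted p = 0.0875 by limma). Its region 1, in an intron of Sec22c, had 189 in the negative-control column, above the 72.2 and 127 of the Pou4f1 replicates, and 27.5 in the IgG column. The other 3 regions, within 1 kb of the starts of Sec22c, Ss18l2 and Nktr, each passed the threshold, beside 64.8% of all regions.

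**Figure D2:**
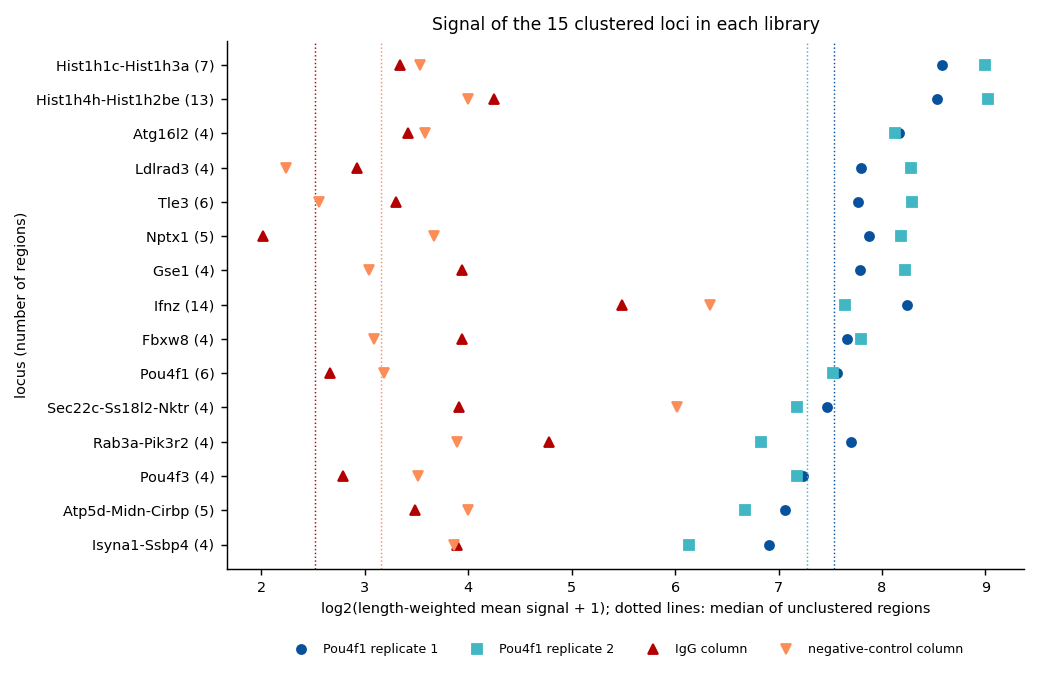
Length-weighted mean signal of the 15 loci in each of the 4 libraries, as log2(signal + 1), ordered by the mean of the Pou4f1 libraries, with the number of regions beside each name and dotted lines at the library's median over unclustered regions. The histone loci are highest in Pou4f1, and Ifnz has the highest IgG signal in both controls.

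Over the loci together, 14 of 15 passed the threshold as higher in Pou4f1, where 67.3% of all runs did. By limma 0 were lower, also at an unadjusted p under 0.05. No locus was at 0 in a control library, while 46.4% and 43.3% of unclustered regions were listed at 0 in the IgG and the negative-control column. Averaging over several regions, which removes such zeros, and clustering cannot be told apart in this count. Region by region, 57 of the 88 passed, beside 64.8% of all regions, so the share was that of the table. Both Pou4f1 libraries lay above both controls in 86 of 88, beside 96.5% of all regions. The median log2 difference was 4.78 in the clustered regions and 5.22 in all regions, and 4.51 in the loci and 5.18 in all runs. It was 2.08 in the interferon zeta regions. Without that locus the clustered median was 5.24, and 52 of 74 regions (70.3%) passed. Without the histone loci as well the median was 5.01, and 38 of 54 (70.4%) passed. These exclusions were chosen after the data were seen. When 1 Pou4f1 library was left out, fewer loci and a smaller share of all runs passed, and the cause was not tested. The median log2 difference of the loci was then 4.60 without replicate 1 and 4.29 without replicate 2.

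Clustered regions had a higher median signal than unclustered ones in all 4 libraries, the controls included. The median of the 88 was 230 in Pou4f1 replicate 1, against 184 in the 7950 unclustered regions, and 228 against 154 in replicate 2. It was 11.98 against 4.71 in the IgG column and 10.6 against 7.91 in the negative-control column. Without the interferon zeta locus the clustered median was 11.03 in the IgG column and 8.53 in the negative-control column, so the latter excess was small. On the log2 scale the clustered minus unclustered difference averaged 0.44 ± 0.17 (SD, n = 2) in Pou4f1 and 0.78 ± 0.57 (SD, n = 2) in IgG. The Pou4f1 and IgG differences did not separate (two-sided exact permutation test, p = 0.667, and 2 against 2 libraries cannot reach 0.05). Of the 88 regions 29 lay below the unclustered median of the mean Pou4f1 signal, which was 173. Above it lay 10 of the 15 loci, namely both histone loci, Ifnz, Atg16l2, Ldlrad3, Tle3, Nptx1, Gse1, Fbxw8 and Pou4f1.

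The size of the Pou4f1 difference depended on the histone loci. Without the interferon zeta locus it was 0.47 ± 0.38 (SD, n = 2), and without the interferon zeta and histone loci it was 0.09 ± 0.14 (SD, n = 2), beside 0.50 ± 0.48 (SD, n = 2) in IgG. Both alternatives were added after the data were seen. With 1 value per locus, so that the histone regions weigh as 2 loci, it was 0.38. The medians of those 54 regions were 184 and 175 in the Pou4f1 replicates. Among regions farther than 1 kb from a start, the clustered 32 differed from the unclustered 2849 by 0.075 ± 0.11 (SD, n = 2) in Pou4f1. In IgG they differed by 3.02 ± 0.55 (SD, n = 2). The unclustered medians there were 0.588 and 0, and the clustered ones 8.84 and 9.62. In the IgG column 49.6% of these unclustered and 37.5% of these clustered regions were listed at 0. In the negative-control column the shares were 53.8% and 31.25%. The unclustered medians thus lay at or near the zeros, while the upper quartiles of both groups were close. The value of 3.02 is therefore not an excess that holds across the regions. An exact permutation test of 2 against 2 libraries cannot reach 0.05. The part of copies, of region length and of library depth in these control values was not tested.

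**Figure D3:**
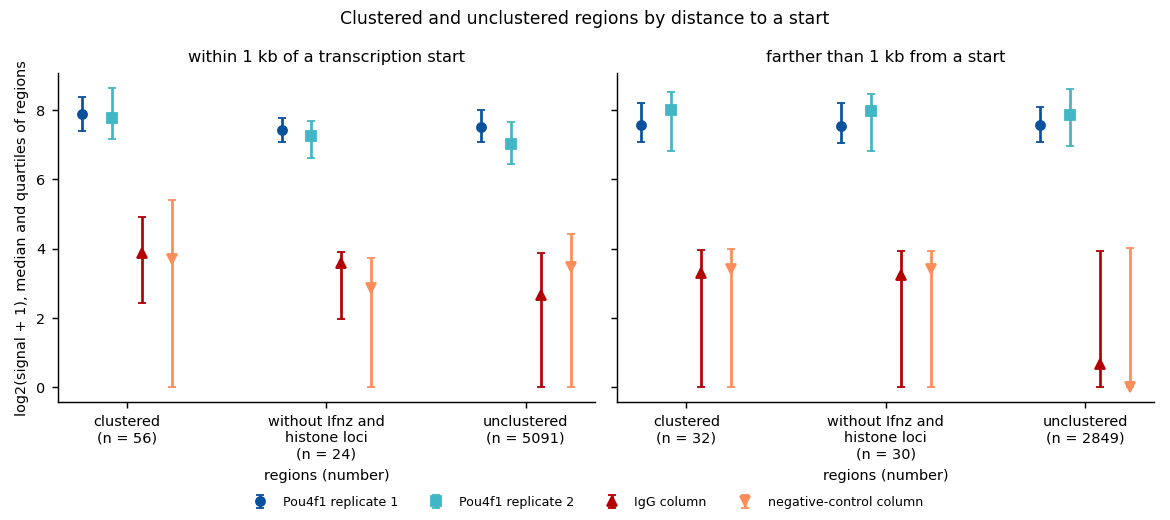
Medians (markers) and quartiles (bars) of log2(signal + 1) over clustered regions, clustered regions without the interferon zeta and histone loci, and unclustered regions, in each library, for regions within 1 kb of a transcription start (left) and farther away (right). Pou4f1 markers are close to those of unclustered regions once these loci are left out. Away from a start the IgG medians are higher in the clustered regions, while the upper quartiles are close.

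The position of the clustered regions followed that of the table. Midpoints of 56 of the 88 (63.6%, 95% exact binomial interval 52.7 to 73.6) lay within 1 kb of a transcription start, beside 64.1% of unclustered regions. A further 16 (18.2%) lay in introns, 12 (13.6%) between genes and 4 (4.55%) in exons, beside 18.6%, 15.3% and 2.0%. The repeated arrays carried much of the first share, as 14 of 14 interferon zeta regions and 18 of 20 histone regions were near a start. Without them 24 of 54 (44.4%, interval 30.9 to 58.6) were, and 16 (29.6%) were in introns. Regions covered 42 of the 50 coding starts inside the loci. Intervals cover counting error only, and regions of 1 locus are not independent.

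The POU motif was not found in the central 200 bp of any clustered region. This was 0 of 88, beside 4.46% of unclustered regions. A count of 0 in 88 allows a share of up to 3.41% when 3 counts are taken as the limit, and the exact binomial interval reaches 4.11%. Along whole regions 7 of 88 held it (7.95%, interval 3.26 to 15.7), beside 11.1% of unclustered regions. All 7 were among the 32 regions farther than 1 kb from a start (21.9%, interval 9.28 to 40.0), beside 26.1% of unclustered regions at that distance. They lay in 6 loci, namely Nptx1, Pou4f1, Pou4f3, Tle3, Ldlrad3 and Fbxw8. The 9 matches stood 162 to 457 bp from the centre of their region. The median of the mean Pou4f1 signal was 275 in the 7 regions with a match and 211 in the 25 without one at that distance, a description of few regions. A match shows only that these letters occur there.

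Other short words were counted along whole regions, unless the central 200 bp are named. CCAAT, the core of the NF-Y box, occurred in 71 of 88 clustered regions (80.7%, interval 70.9 to 88.3), beside 67.2% of unclustered ones. Without the interferon zeta locus it occurred in 58 of 74 (78.4%). In the central 200 bp the direction was the opposite, with CCAAT in 13 of 88 (14.8%, interval 8.11 to 23.9), beside 22.9% of unclustered regions. Without the interferon zeta and histone loci it was there in 11 of 54 (20.4%, interval 10.6 to 33.5). GGGCGG, the core of the SP1 box, occurred in 52 (59.1%, interval 48.1 to 69.5), beside 66.3%. None of the 52 was in the interferon zeta copies, and without that locus the share was 70.3% (interval 58.5 to 80.3). Without the histone loci as well it was 33 of 54 (61.1%, interval 46.9 to 74.1). The direction thus depended on which loci were counted, and both intervals include the 66.3% of unclustered regions. CAGCTG, an E-box that bHLH factors bind, occurred in 46 (52.3%, interval 41.4 to 63.0), beside 47.5%, and was again absent from the interferon zeta copies, without which the share was 62.2% (interval 50.1 to 73.2). The median GC content was 55.9% in the clustered and 59.7% in the unclustered regions, and the median length was 1064 and 994 bp. Within 1 kb of a start, GGGCGG was found in 62.5% of clustered and 90.4% of unclustered regions, where the median GC content was 58.5% and 62.8%. Without the interferon zeta locus 35 of 42 clustered regions near a start held it (83.3%, interval 68.6 to 93.0). Farther than 1 kb from a start the direction was the reverse. There GGGCGG was found in 17 of 32 clustered regions (53.1%, interval 34.7 to 70.9) and in 23.1% of unclustered ones. The median GC content at that distance was 53.9% and 49.0%.

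The ratio of the Pou4f1 replicates varied between loci, although both put the histone loci highest and Isyna1-Ssbp4 lowest. The ratio of replicate 2 to replicate 1 had a median of 0.983 in the clustered regions (quartiles 0.659 and 1.43), beside 0.809 in the unclustered ones. Within 1 kb of a start the medians were 0.954 and 0.701, but the clustered one was 0.693 without the interferon zeta and histone loci. Farther from a start the order turned, with 1.04 in the clustered and 1.16 in the unclustered regions. Replicate 2 was the higher in 7 of the 15 loci. By locus the ratio was highest at Tle3 (1.44), Hist1h4h-Hist1h2be (1.41) and Ldlrad3 (1.40). It was lowest at Rab3a-Pik3r2 (0.547), Isyna1-Ssbp4 (0.583) and Ifnz (0.660). At Pou4f1, Atg16l2 and Pou4f3 it was 0.973, 0.968 and 0.960. With 1 library per replicate the ratios have no error of their own. Neighbours in the order by mean Pou4f1 signal, such as Tle3, Nptx1, Gse1 and Ifnz, thus differed by less than their libraries did. Across the 88 regions Spearman's rho between the replicates was 0.733, and it was 0.753 across the unclustered regions. These are correlations across regions, which share libraries and are not replicates.

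**Figure D4:**
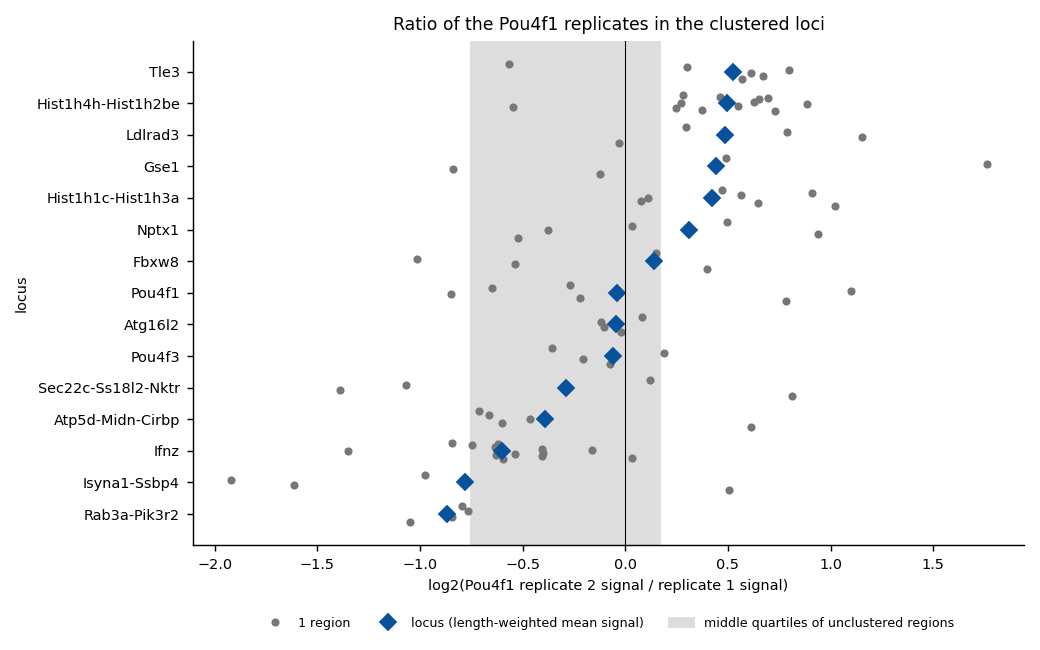
Log2 ratio of Pou4f1 replicate 2 to replicate 1 for each region (grey points) and each locus (blue diamonds), ordered by locus, with the grey band between the quartiles of unclustered regions. The histone loci, Tle3, Ldlrad3, Gse1 and Nptx1 lie to the right of the band, and Rab3a-Pik3r2 and Isyna1-Ssbp4 to its left.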

How the data were processed

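The authors trimmed and masked paired-end CUT&Tag reads, aligned them to mm10 with Bowtie2 2.4.5 and used SEACR (relaxed) to call regions. The deposited table holds a signal value per region and library. The sources used here do not give its scaling, the treatment of reads that map to several places, or whether regions were called on pooled libraries. The members and lists were chosen with earlier results of these data known. Regions 10 kb or less apart were joined, and loci needed 4 regions. For Pou4f1 (n = 2) against IgG (n = 2), limma 3.58.1 (R 4.3.3) was fitted to log2(signal + 1) with no covariate, with Benjamini-Hochberg adjustment over all regions or runs and a threshold of 0.05. The fit was tested on simulated data. Loci of 5 or more regions, the 3 highest and 3 lowest by Pou4f1 signal and those at ganglion cell factors were described in full, with their highest, lowest and motif-bearing regions. Genes came from GENCODE M21, distances ran from region midpoints, and sequence came from the RefSeq copy of GRCm38.p6 (mm10). Similar regions were found with blastn 2.17.0, other steps used Python 3.11.15, and shares have 95% exact (Clopper-Pearson) intervals. Alternatives were other gaps, region numbers, pseudocounts, scalings of IgG, limma-trend, a filter on summed signal, and each library left out.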

Additional observations from a re-analysis of the deposited data

How the results depend on the processing

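The depth of the libraries, and so their scaling, is the main limit, and the cause of each change listed here was not tested. Of the 88 regions, 57 passed the threshold. The count, with the share of all regions in brackets, was 31 (43.4%) with a pseudocount of 0.1, 28 (36.7%) and 19 (26.8%) with IgG taken as 2 and 4 times shallower, and 10 (22.7%) with column totals as library sizes, where 1 more was lower. It was 22 to 87 with 1 library left out, namely 22 (29.4%) and 23 (30.9%) without Pou4f1 replicate 1 or 2, and 79 (94.4%) and 87 (95.9%) without the IgG or the negative-control column. Of the 15 loci, 14 passed, and 6 (26.5% of all runs) with IgG taken as 4 times shallower. With 1 library left out 4 to 15 passed, the 4 without either Pou4f1 replicate (28.7% and 30.2%), and 14 (94.8%) and 15 (96.0%) without the IgG or the negative-control column. With column totals 0 loci (21.7% of all runs) passed by limma, 1 was higher and 1 lower at an unadjusted p under 0.05, and the median of all runs shifted by -2.51. The totals were 1758370 and 1656390 in Pou4f1 replicates 1 and 2, 88179 in the IgG column and 120664 in the negative-control column. They cover only regions called for Pou4f1, so they need not follow depth, and this scaling takes out part of the Pou4f1 excess shared by the table. That scaling turned the log2 difference at Atp5d-Midn-Cirbp (-0.79), Ifnz (-1.98), Isyna1-Ssbp4 (-1.29), Rab3a-Pik3r2 (-1.03) and Sec22c-Ss18l2-Nktr (-1.61). It also turned regions 1 (-0.039) and 4 (-1.85) of Atp5d-Midn-Cirbp, region 1 of Nptx1 (-0.26), region 1 of Pou4f3 (-0.49), regions 5 (-1.72) and 8 (-1.44) of Ifnz and regions 1 (-0.30) and 2 (-3.48) of Isyna1-Ssbp4. Region 2 of Isyna1-Ssbp4 also turned with IgG taken as 2 (-0.49) and 4 (-1.47) times shallower and ranged from -0.30 (without Pou4f1 replicate 1) to 1.27 with 1 library left out. The clustered minus unclustered Pou4f1 difference of 0.44 was 0.705 with a gap of 5 kb, 0.075 farther than 1 kb from a start, 0.092 without the interferon zeta and histone loci, and 0.32 to 0.56 with 1 Pou4f1 library left out. The number of loci was 6 and 32 with gaps of 5 and 20 kb, 62 and 7 with at least 3 and 5 regions, and 11 with regions closer than 1 kb merged. It was 4 (Gse1, Nptx1, Pou4f1 and Tle3) with regions within 1 kb of a start removed. The share near a start was 44.4% without the interferon zeta and histone loci, and the share with the motif was 7.95% along whole regions. The alternatives that leave out these loci were chosen after seeing the data. No paired analysis was possible because the IgG columns carry no replicate number.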
